A study of Homo sapiens with 2 samples.

Results

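The imprinted miRNA cluster at 14q32 was described together with the long genes of the same locus in U87MG, an established cell line from a human glioblastoma. Members were the mature miRNAs of 45 named hairpin stems, taken with both arms and all numbered copies, and the genes MEG3, MEG8, RTL1, DLK1 and DIO3. A stem is the name shared by the 5p and 3p arm of a hairpin. The small RNA table listed 80 of its 1224 mature miRNA entries under 44 of these stems, and the mRNA table of 21445 genes listed 3 of the 5 long genes. The data come from untreated cells, with 1 library of small RNA and 1 of mRNA, grown in MEM with 10% serum and extracted with Trizol. There was no replicate and no other cell type, so all values below describe these 2 libraries and none was tested between conditions. The miRNA reads totalled 11785001. No depth is known for the gene table, which gives FPKM, the number of fragments divided by gene length and library size. The labels repeat the small RNA protocol for both libraries, so how RNA was selected for the gene table is not stated.

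Genomic imprinting leaves only the maternal or only the paternal copy of a gene active. At 14q32 the non-coding RNAs MEG3 and MEG8, small nucleolar RNAs and the miRNA hairpins are expressed from the maternal chromosome, and the protein genes DLK1, RTL1 and DIO3 mainly from the paternal one. The locus is highly active in placenta and brain, and MEG3 is known as a growth-restraining RNA that is often silenced in tumours. Each hairpin is cut by DROSHA and DICER1 into a 5p and a 3p strand, of which usually one is kept by an Argonaute protein. Bases 2 to 8 of the kept strand, the seed, choose the target mRNAs.

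The hairpins fall into an upstream block around RTL1, from miR-493 to miR-136, and a larger downstream block from miR-379 to miR-656. miR-370 lies between them. In RefSeq the 45 stems correspond to 48 hairpins, since miR-329, miR-376a and miR-1185 have 2 copies each. The annotated mature sequences span 198 kb (GRCh38.p14), and all lie on the plus strand. Of the 80 deposited entries, 79 had a mature sequence equal to that in RefSeq, and miR-668-3p was not in that table. The mature strands with the most reads are shown first, 5′ to 3′ from RefSeq on GRCh38.p14, with the seed in capitals, because they carried most of the signal of the cluster.
miR-381-3p: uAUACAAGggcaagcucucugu
miR-127-3p: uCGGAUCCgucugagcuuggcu
miR-379-5p: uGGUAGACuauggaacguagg
miR-370-3p: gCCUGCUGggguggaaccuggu
miR-409-3p: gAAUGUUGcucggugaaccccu
miR-494-3p: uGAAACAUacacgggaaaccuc
miR-493-5p: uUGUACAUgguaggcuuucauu
miR-654-3p: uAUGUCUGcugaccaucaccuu
No seed is shared among these 8 strands. They map to chr14:101045968-101045989 for miR-381-3p, chr14:100883035-100883056 for miR-127-3p, chr14:101022071-101022091 for miR-379-5p and chr14:100911186-100911207 for miR-370-3p. miR-409-3p maps to chr14:101065346-101065367, miR-494-3p to chr14:101029681-101029702, miR-493-5p to chr14:100869075-100869096 and miR-654-3p to chr14:101040269-101040290.

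The cluster held a small share of the miRNA reads, and a few stems held most of that share. Its 80 entries had 49588 reads, 0.421% of the miRNA reads (exact 95% interval 0.417 to 0.424%, which covers counting error only). miR-381 had 14542 reads, or 29.3% of the cluster, and miR-127 had 12138 reads, or 24.5%. miR-379 followed with 3365 reads, and these 3 stems held 60.6% of the cluster reads (60.2 to 61.0%). Within the whole library miR-381-3p ranked 47 and miR-127-3p ranked 51, while the next members, miR-379-5p and miR-370-3p, stood at ranks 96 and 97.

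Most members gave some reads, but the highest stem had 7271 times the reads of the lowest. Of the 44 stems with a row, 39 (88.6%) had at least 10 reads, where 51.2% of all listed stems did. At 1000 reads or more there were 10 stems (22.7%), against 15.0% of all listed stems, and these 10 held 91.2% of the cluster reads. Another 15 stems had at least 100 but fewer than 1000 reads, 14 had at least 10 but fewer than 100, and 5 had fewer than 10. The median over the stems was 119 reads, and the highest stem had 122 times that median. Among single entries, 58 of 80 (72.5%) reached 10 reads, where 51.6% of all listed entries did. The median listed member entry had 55.5 reads, and the median listed entry outside the cluster had 10. Entries were listed down to 1 read, and miR-300 was the only stem with no row. How reads that fit more than 1 entry were handled is not given, so its level is not known.

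After miR-381, miR-127 and miR-379, the stems above 1000 reads were miR-409 with 3158 reads, miR-370 with 3042 and miR-493 with 2892, followed by miR-654 with 2070. miR-494 had 1788 reads and miR-411 had 1204. miR-134, known from rat neurons to restrain LIMK1 at dendritic spines, had 1048. These 10 stems lie scattered over both blocks and at miR-370.

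Of the stems between 100 and 1000 reads, miR-382 was highest with 642 reads, followed by miR-758 with 429, miR-136 with 411, miR-323a with 336 and miR-369 with 252. miR-485, which lowers a synaptic vesicle protein in rat neurons, had 199 reads and miR-889 had 197. miR-299 had 171 reads, miR-543 169, miR-432 139 and miR-656 122. miR-495 had 126 on its 3p arm and 1 on its 5p arm. The lowest of this range were miR-487b with 116 reads, miR-337 with 115 and miR-1185 with 114. The 14 stems below them ran from miR-376c with 88 reads to miR-496 with 15. Fewer than 10 reads were listed for miR-380 with 9, miR-412 with 8, miR-665 with 4, and miR-541 and miR-668 with 2 each. These last 5 counts are too low to order the stems.

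Reads did not follow the order of the hairpins along the locus as a smooth gradient. The upstream block held 15811 reads over 8 stems, 31.9% of the cluster (31.5 to 32.3%). miR-370 held 6.13%, and the downstream block held 30735 reads, or 62.0%, over 36 stems, 35 of them with a row. The median stem with a row held 0.256% of the cluster reads upstream and 0.234% downstream. Within the upstream block miR-127 alone ran to 12138 reads, while the other stems ranged from 4 for miR-665 to 2892 for miR-493. Without miR-127 the upstream block held 9.81% of the remaining reads, and without miR-381 it held 45.1%. With miR-370 counted into it the share was 38.0%.

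**Figure D1:**
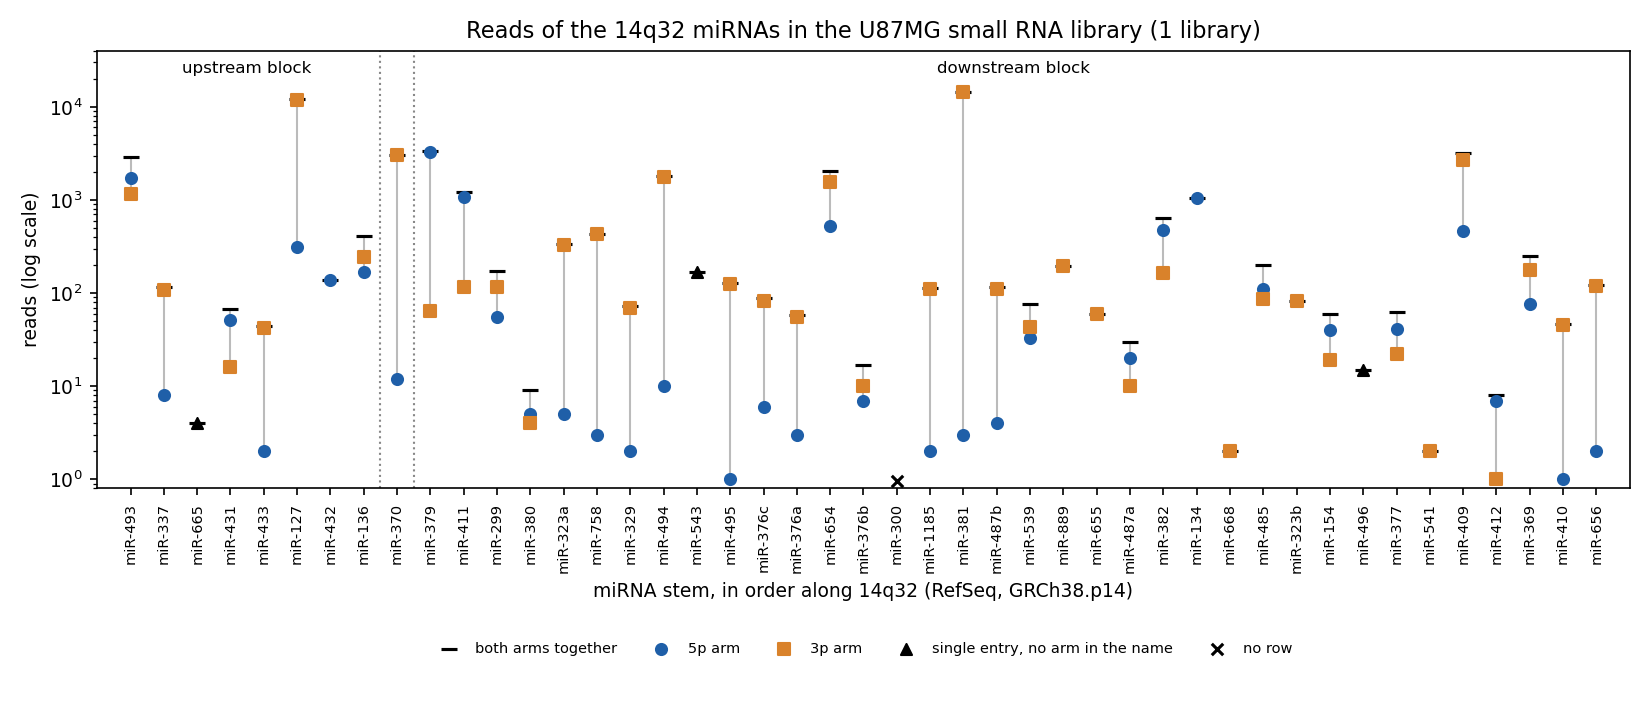
Reads of each 14q32 miRNA stem (vertical axis, log scale) in the order of the hairpins along the locus (horizontal axis) in the single small RNA library, with circles for the 5p arm, squares for the 3p arm, dashes for both arms together, triangles for entries with no arm in the name and a cross for the stem with no row. Each stem with 2 hairpins is drawn once, at its first copy, with the reads of both summed. miR-127 with 12138 reads and miR-381 with 14542 stand out above neighbours with far fewer reads.

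Neighbouring stems were often far apart in level. A stem with 2 hairpins was placed once, at its first copy, with the reads of both copies summed. The second copy of miR-376a, which follows miR-376b, is therefore not in the pairs. Of 42 pairs of neighbouring stems with rows, 20 differed by more than 10-fold and 10 by at most 2-fold, with a median ratio of 7.22. Every pair that includes miR-665, miR-380, miR-668, miR-541 or miR-412 is among these 20. Those stems had fewer than 10 reads each, so their ratios are uncertain. Pairs that are not neighbours were not counted, so wide gaps cannot be called particular to neighbours. miR-381 had 128 times the reads of miR-1185 on its upstream side, which had 114 reads summed over 2 hairpins. Of these, 22 were listed for miR-1185-2-3p, from the copy next to miR-381. Against miR-487b on its downstream side, with 116 reads, miR-381 had 125 times the reads. miR-127 had 276 times the reads of miR-433, which had 44, and 87.3 times those of miR-432, which had 139. miR-409, miR-412, miR-369 and miR-410 lie within 668 bases, from the first base of miR-409-5p to the last of miR-410-3p. They had 3158, 8, 252 and 46 reads in that order. At the start of the downstream block miR-370 and miR-379 were nearly level, with 3042 and 3365 reads, although an array of small nucleolar RNA genes lies between them.

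The upstream block includes 5 hairpins that lie inside the RefSeq span of RTL1 on the opposite strand, miR-431, miR-433, miR-127, miR-432 and miR-136. In mouse, miRNAs of this group are antisense to the RTL1 transcript and guide its cleavage. They had 12800 reads together, nearly all from miR-127. miR-136 had 411 reads, miR-432 139, miR-431 68 and miR-433 44.

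Among hairpins with reads on both arms, the 3p strand was the more abundant one in most. Arm use was taken for the 21 member stems with both arms listed and at least 100 reads together. The 3p arm was higher in 16 of 21 (76.2%, interval 52.8 to 91.8%), where the other listed miRNAs had it higher in 66 of 165 (40.0%, 32.5 to 47.9%). Over all 186 such hairpin names the share was 44.1%. Hairpins of a cluster arise from related sequences and are not independent, so no test was made of this difference. Among the 11 member stems with both arms listed and 10 to 99 reads, the 3p arm was higher in 7. The share among other hairpin names in that range was not counted, so this count has no background. For miR-376b, miR-539 and miR-487a in this range the interval held an even share, so neither arm can be called higher.

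One arm held at least 90% of the reads in 13 of the 21 stems (61.9%, 38.4 to 81.9%), against 115 of 165 other hairpin names (69.7%, 62.1 to 76.6%). The share over all names was 68.8%, near that of the members. At the strict end, miR-381 had 14539 reads on the 3p arm and 3 on the 5p arm, a ratio of 4846. miR-370 had 3030 on the 3p arm and 12 on the 5p arm, or 99.6% on 3p (99.3 to 99.8%). miR-494 had 1778 and 10, and miR-127 had 11825 and 313, or 97.4% on 3p (97.1 to 97.7%). In these 4 stems nearly all reads were on the 3p strand.

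The first hairpins of the downstream block went the other way. miR-379 had 3300 reads on the 5p arm and 65 on the 3p arm, which is 98.1% on 5p (97.5 to 98.5%). miR-411, the next hairpin, had 1089 and 115, or 90.4% on 5p (88.6 to 92.0%). The remaining stems with a higher 5p arm were miR-382 at 74.1% (70.6 to 77.5%), miR-493 at 59.8% (58.0 to 61.6%) and miR-485 at 56.3%. For miR-485 the interval of 49.1 to 63.3% holds an even share, so neither arm can be called higher. That was the only one of the 21 stems whose interval held 50%.

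**Figure D2:**
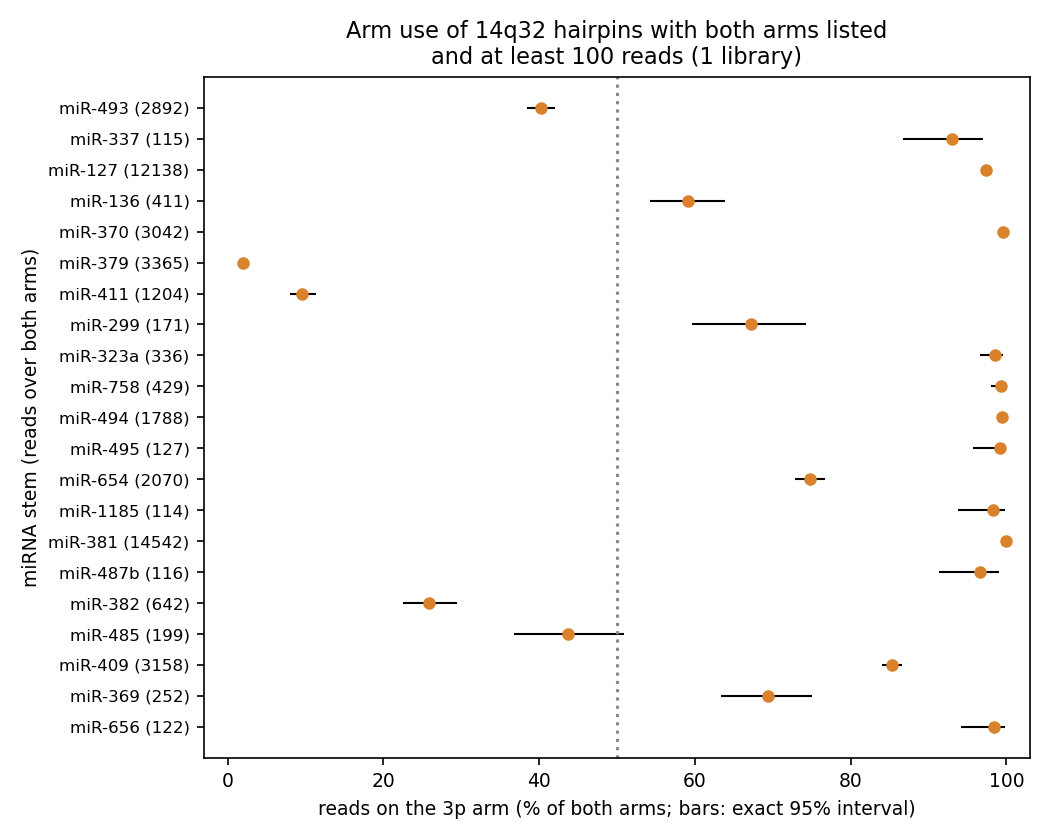
Share of reads on the 3p arm (horizontal axis, % of both arms) for the 21 stems with both arms listed and at least 100 reads, in order along the locus from top to bottom. Points are the single library and bars the exact 95% interval for counting error, and 16 points lie above the dotted line at 50%.

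Several stems had many reads on both strands. In 7 of the 21 the higher arm held less than 75%, where 23 of 165 other hairpin names did. miR-493 had 1729 reads on the 5p arm and 1163 on the 3p arm. miR-654 had 521 and 1549, or 74.8% on 3p (72.9 to 76.7%). miR-136 had 168 and 243, which is 59.1% on 3p (54.2 to 63.9%). miR-382, miR-299, miR-369 and miR-485 were the others, and miR-409, the next above the limit, had 463 on the 5p arm and 2695 on the 3p arm.
Both strands of miR-493, shown with the seed in capitals because neither held 75% of the reads, carry different seeds.
miR-493-5p: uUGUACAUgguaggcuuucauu
miR-493-3p: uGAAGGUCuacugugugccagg
The second strand maps to chr14:100869116-100869137 on the plus strand (GRCh38.p14).

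Summed over the cluster, 39640 reads came from 3p arms and 9760 from 5p arms, or 80.2% on 3p. This share rests on 2 stems, since without miR-381 and miR-127 it was 58.4%. For 7 stems with arm names only 1 arm was listed. miR-134 and miR-432 were listed on the 5p arm alone, and miR-889, miR-655, miR-323b, miR-668 and miR-541 on the 3p arm alone. miR-134 is the highest of them, with 1048 reads on 5p and no row for 3p.

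**Figure D3:**
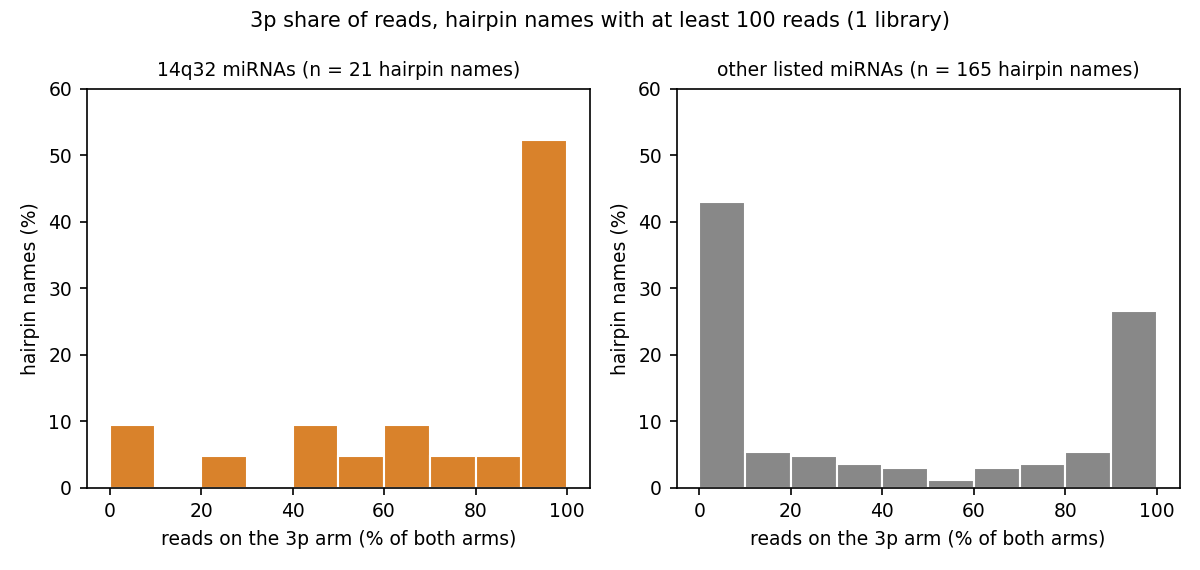
Distribution of the share of reads on the 3p arm (horizontal axis, in steps of 10%) over hairpin names with at least 100 reads in the single small RNA library, for the 21 names of the 14q32 cluster on the left and the 165 other names on the right. In the top step, 90% and above, lie 52.4% of the 14q32 names and 26.7% of the others, and in the lowest step 9.52% and 43.0%.

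Argonaute proteins are known to prefer strands that begin with U or A. In the 21 stems the higher arm began with U in 9 and with A in 6, 71.4% together, and the lower arm with U in 5 and with A in 9, 66.7% together. Among the 165 other hairpin names the higher arm began with U or A in 85.5% and the lower arm in 50.9%. miR-370-3p and miR-409-3p, both among the most abundant strands, begin with G. The median G and C content of the higher arm was 45.5% in members and 47.6% in the others.

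The members have largely separate seeds. The 88 mature names of the cluster, listed or annotated, carry 77 distinct seeds, of which 10 occur in more than 1 member. The largest shared pool of reads was that of miR-381-3p and miR-300, shown with the seed in capitals because the pair has the same seed and unequal listing.
miR-381-3p: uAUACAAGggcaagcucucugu
miR-300: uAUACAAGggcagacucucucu
The strands differ at 3 positions outside the seed, G13A, A14G and C21G, counted from the 5′ end with the base of miR-300 first. miR-381-3p had 14539 reads and miR-300, at chr14:101041414-101041435, had no row. No other listed miRNA carries this seed.

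miR-654-5p and miR-541-3p share the seed GGUGGGC, with 521 and 2 reads. miR-379-3p and miR-411-3p, from neighbouring hairpins, share AUGUAAC and had 65 and 115 reads. miR-485-3p and miR-539-3p share UCAUACA with 87 and 43 reads, and miR-154-3p and miR-487a-3p share AUCAUAC with 19 and 10. A total of 5 member seeds also occur in listed miRNAs outside the cluster. For the seed of miR-1185-1-3p and miR-1185-2-3p, which had 90 and 22 reads, let-7f-2-3p outside the cluster had 227 reads. For that of miR-329-3p, with 70 reads, miR-362-3p had 16.

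The miR-376 stems form a family of near copies, and all 3 were low. miR-376c had 88 reads, miR-376a 58 and miR-376b 17. The strands below show the seed in capitals, since adenosine to inosine editing by ADAR enzymes is known to alter the seed in this family in human and mouse brain.
miR-376a-3p: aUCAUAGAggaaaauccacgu
miR-376b-3p: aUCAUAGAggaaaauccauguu
miR-376c-3p: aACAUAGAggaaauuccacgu
miR-376a-3p and miR-376b-3p differ over their shared length only by C19U, with miR-376a-3p first, and miR-376a-3p and miR-376c-3p by U2A and A14U. miR-376a-3p had 55 reads, miR-376b-3p 10 and miR-376c-3p 82. miR-1185-1-3p and miR-1185-2-3p differ by U20C alone. How the authors assigned reads that match several such names is not given, so the division of reads within these groups is uncertain. The table holds 1 database sequence for each name, and edited reads cannot be told from it.

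Stretches of 7 bases, counted over the whole strand with the seed included, recur among members from different hairpins. The stretch GGUCCAC occurs in 5 of the 88 member sequences (5.68%), miR-379-3p, miR-380-3p, miR-411-3p, miR-412-3p and miR-758-3p, and in 0 of 1129 other listed sequences. UACACGG also occurs in 5 members, miR-154-3p, miR-323a-3p, miR-323b-3p, miR-485-3p and miR-494-3p, and in 0 others. UCAUACA occurs in miR-154-3p, miR-337-5p, miR-485-3p, miR-487a-3p and miR-539-3p and in 0 others. In miR-485-3p and miR-539-3p it is the shared seed given above. ACAUGGU occurs in miR-369-3p, miR-379-3p, miR-493-5p, miR-495-3p and miR-655-3p and in 2 others (0.177%). These 4 stretches were picked after counting as the most frequent ones among members and were read in the strand as listed.

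Of the other miRNAs of the locus, miR-1197 had 20 reads, miR-770, within MEG3, had 5, and miR-1193 and miR-544a had 1 each. miR-2392 and miR-1247 had no row. miR-544b also had 1 read, but RefSeq places it on chromosome 3.

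Among the long genes, the maternally expressed RNAs MEG3 and MEG8 were listed above RTL1, the only paternally expressed gene with a row. MEG3 was at 6.89 FPKM, MEG8, the host of the small nucleolar RNA array, at 1.54 FPKM, and RTL1, a protein derived from a retrotransposon, at 0.232 FPKM. DLK1, a transmembrane protein related to Notch ligands, and DIO3, an enzyme that inactivates thyroid hormone, had no row. On this length-scaled measure MEG3 stood 4.47 times above MEG8 and 29.6 times above RTL1, without any replicate. Of the 3 genes with a row 2 (66.7%) reached 1 FPKM, where 64.6% of all listed genes did. These 2, MEG3 and MEG8, are typed as lincRNA, a class of long non-coding RNA in which 32.6% of genes reached 1 FPKM. With 3 rows the shares are too coarse to compare.

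MEG3 was a moderate transcript of the whole library but a high one among its own class. It ranked 8163 of 21445 genes, with 61.9% of genes below it, and 92 of 1507 genes typed as lincRNA, with 93.9% below it. MEG8 ranked 344 among the lincRNA genes, with 77.2% below it. RTL1 stood above 11.1% of the protein-coding genes. MEG9, the non-coding gene at the far end of the downstream block, was at 0.0478 FPKM, and MEG3 stood 144 times above it. RTL1 overlaps the miRNA transcripts on the opposite strand, and whether the authors counted by strand is not given, so reads of RTL1 and of its antisense partner cannot be told apart.

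**Figure D4:**
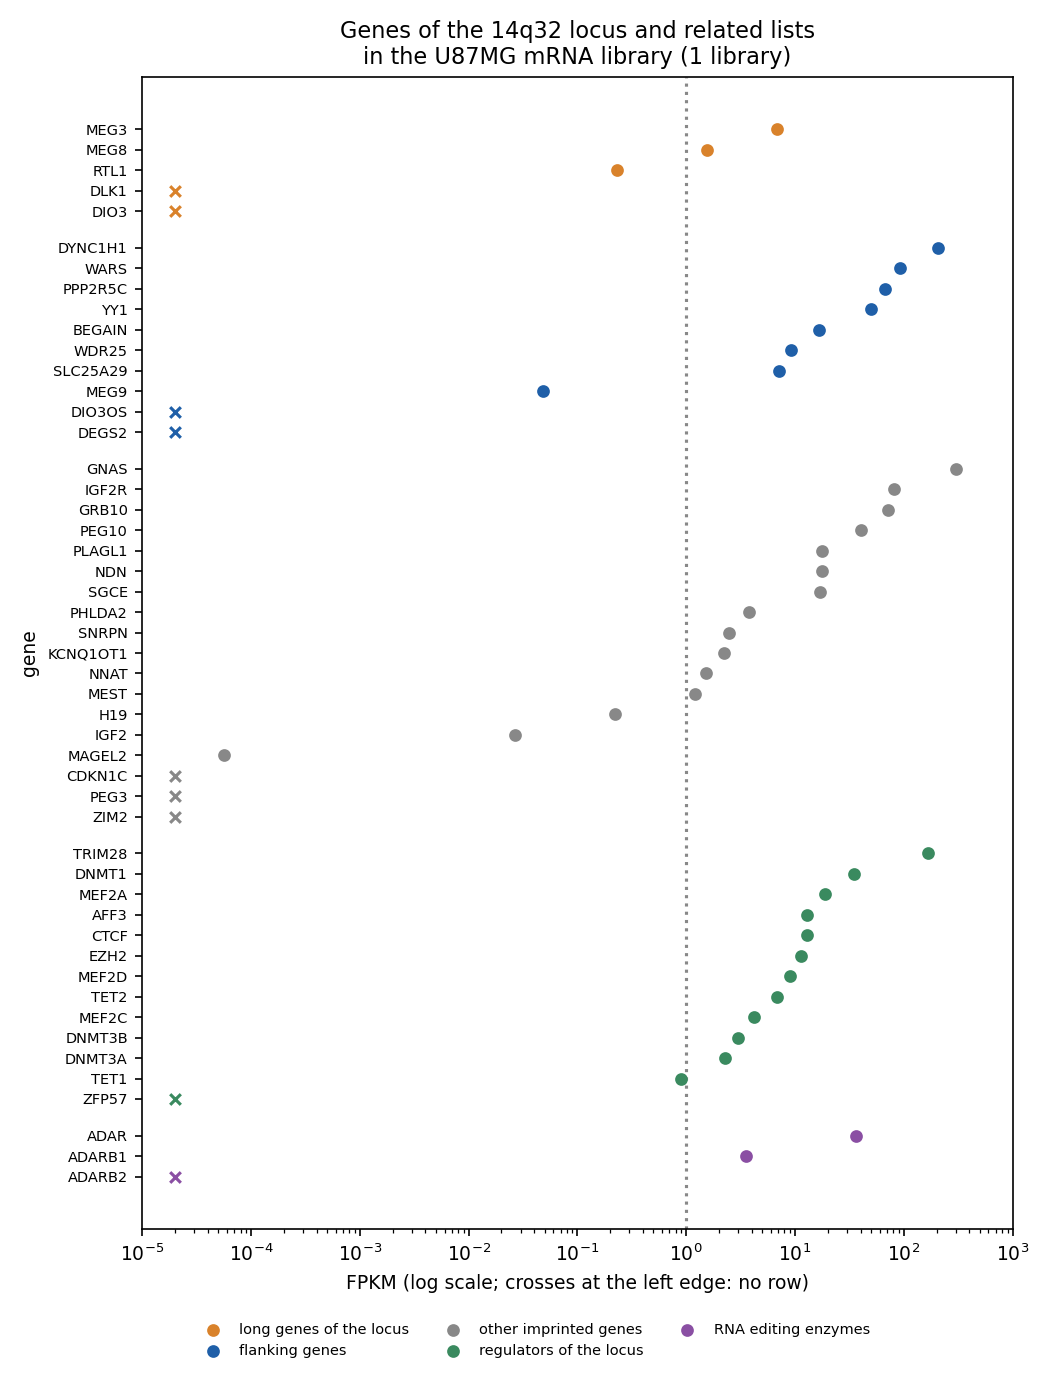
FPKM (horizontal axis, log scale) of the long genes of 14q32 and of 4 related lists of genes in the single mRNA library, with crosses at the left edge for genes with no row and a dotted line at 1 FPKM. MEG3 at 6.89 and MEG8 at 1.54 lie right of the line and RTL1 at 0.232 left of it. Of the 8 genes with a row on the list of flanking genes, 7 lie right of the line and MEG9 left.

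Genes on a list of flanking genes, all on the same chromosome arm, were mostly listed. The list also holds MEG9 and DIO3OS, which belong to the imprinted locus itself. MEG9, at 0.0478 FPKM, was the gene with a row below 1 FPKM. Of the 8 of 10 flanking genes with a row, 7 (87.5%) were at 1 FPKM or more, where 64.6% of all listed genes were, with DYNC1H1, the heavy chain of cytoplasmic dynein, at 208, WARS, the tryptophanyl-tRNA synthetase, at 91.7, PPP2R5C, a phosphatase subunit, at 66.5 and the transcription factor YY1 at 49.6. BEGAIN, upstream of DLK1 in the locus, was at 16.6. MEG9 and SLC25A29 (7.06) were the lowest with a row, and DIO3OS and DEGS2 had none. Except for MEG9, the flanking genes with a row are typed as protein-coding, so all listed genes, which include other types, are an unlike background. RefSeq lists 41 small nucleolar RNA genes of the families SNORD112, SNORD113 and SNORD114 in the locus, and none of them had a row. Rows were listed for 69 genes typed as snoRNA, but the share of all annotated snoRNA genes with a row was not counted. The RNA selection is not stated either, so a missing row cannot be read as absence of the RNA.

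Of 18 other imprinted genes 15 had a row, with PEG3, ZIM2 and CDKN1C missing. FPKM does not tell the maternal and paternal copies apart, so whether these genes are imprinted in U87MG was not examined. Of the 15, 12 (80.0%) were at 1 FPKM or more, where 64.6% of all listed genes were. GNAS, a G protein subunit, was highest at 299 FPKM, followed by the receptor IGF2R at 81.8, the signalling adaptor GRB10 at 71.6 and the retrotransposon-derived PEG10 at 40.3. H19, the maternal non-coding RNA of the IGF2 locus, was at 0.220 and IGF2 at 0.0268, with MAGEL2 at 5.62e-05. MEG3 was thus listed above H19. The genes of the list with a row had a median of 3.78 FPKM, against 2.96 over all listed genes. Apart from H19 and KCNQ1OT1 they are typed as protein-coding, whereas all listed genes include other types. The median gene, PHLDA2, stood above 53.2% of all genes but only 36.4% of protein-coding genes. MEST, at 1.20 FPKM the lowest of the 12, stood above 23.9% of protein-coding genes.

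Factors known to keep imprints or to act on the locus were mostly listed. Of the 12 of 13 with a row, 11 (91.7%) were at 1 FPKM or more, where 64.6% of all listed genes were, led by TRIM28, a corepressor that protects imprints, at 168, the maintenance methyltransferase DNMT1 at 34.9, MEF2A, which drives the downstream miRNAs in rodent neurons and muscle, at 18.7 and AFF3, which binds an enhancer of the locus in mouse stem cells, at 12.8. DNMT3A at 2.27 and the demethylating enzyme TET1 at 0.904 were lowest. All genes of this list with a row are typed as protein-coding. The background of all listed genes includes lincRNA genes, of which 32.6% reached 1 FPKM, so it is an unlike one. TET1 stood above 33.8% of all genes but only 21.7% of protein-coding genes. ZFP57, the zinc finger protein that recruits TRIM28 to imprinted regions, had no row. Of the editing enzymes ADAR was at 36.4 and ADARB1 at 3.57, and ADARB2 had no row. With 1 library, no relation of these levels to the miRNA reads could be examined.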

How the data were processed

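Per the file headers, the authors deposited a read count for each mature miRNA, without normalization. The gene values are FPKM, deposited by the authors per Ensembl gene. Adapter trimming software (cutadapt) and the builds hg19 and GRCh37 are named in the submitters' processing notes. Not given in the sources used here are the aligner, the counter, the FPKM program, the use of strand and the handling of reads that fit more than 1 entry. The piRNA table was not used.

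Member entries were found by name, and reads of numbered copies were summed per stem and arm. Detection was set at 10 reads or 1 FPKM, and arm use at 100 reads over both listed arms. Intervals are exact Clopper-Pearson 95% intervals and cover counting error only, since the reads carry no molecular identifiers and are no count of molecules. Their calculation was run on simulated binomial counts, which says nothing about how well they suit the read data. Hairpin order, strand and sequences came from RefSeq on GRCh38.p14, a build other than that of the files. Gene identifiers were matched by Ensembl identifier, 20595 of 21445. Scripts used Python 3.11.15, pandas 2.3.3 and scipy 1.17.1.

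The members, lists and thresholds were chosen with earlier results of these data known. Named were stems with at least 100 reads, stems with no row, all 5 long genes, and the 4 highest, the 2 lowest and the unlisted genes of each list. Other stems were named after their values were seen.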

Additional observations from a re-analysis of the deposited data

How the results depend on the processing

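The cluster share of 0.421% was 1.02% of the miRNA reads without miR-21-5p, and it kept its value when the other miRNAs of the locus were added. Of 45 stems, 39 had 10 reads or more, 44 had at least 1 and 25 had 100 or more. The upstream block held 31.9% of the cluster, 30.6% when only the higher arm of each stem was counted, 45.1% without miR-381, 9.81% without miR-127 and 38.0% with miR-370 added. The 3 highest stems held 60.6%, and 64.2% with the higher arm only. MEG3 ranked 8163 among all genes and 7839 among protein-coding and long non-coding genes. Of the other imprinted genes 12 reached 1 FPKM, 13 reached 0.1 and 7 reached 10, and the share over all listed genes was counted at 1 FPKM only. Of 21 stems 13 had 1 arm at 90% or more, 14 had 1 at 75% or more, and 16 stems met the 90% limit once those with 1 listed arm were counted. At a minimum of 20 reads, 18 of 31 stems had 1 arm at 90% or more and the 3p arm was higher in 22 instead of 16, while the shares were 58.1% instead of 61.9% and 71.0% instead of 76.2%. Among the 222 other hairpin names at that minimum these shares were 64.9% and 41.9%. The settings that added miR-370 or the stems with 1 listed arm, or left out miR-127, were chosen after seeing the data. Counts below 10 reads limit any order among the lowest stems, and the unknown depth of the mRNA library leaves FPKM values without an interval. No paired analysis was possible because each group held 1 sample.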
